A study of Drosophila melanogaster with 16 samples.

Results

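The genes described here encode parts of the basement membrane, or mark haemocytes, the blood cells of the fly. They were chosen as 10 FlyBase identifiers, and the deposited table of 11196 features held 9 of them. They were the collagen IV chain genes vkg (FBgn0016075) and Col4a1 (FBgn0000299), the laminin chain genes LanA (FBgn0002526), LanB1 (FBgn0002527) and LanB2 (FBgn0002528), the collagen-binding protein gene SPARC (FBgn0026562), and the haemocyte genes Pxn (FBgn0011828), Hml (FBgn0029167) and srp (FBgn0003507). The nidogen gene Ndg (FBgn0026403) was not analysed here. The names were assigned to the identifiers when the genes were chosen. The reference gene table held the identifier of 1 member, LanA, and gave the same name.

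Tumours of Drosophila melanogaster had been induced in clones of cells of the larval eye-antennal imaginal disc, the epithelial sac that forms the adult eye and antenna. The 4 genotypes were RasV12scrib-, RasV12baz- and RasV12cdc42-, in which an activated Ras was combined with loss of a polarity gene, and RafGOFscrib-, in which a gain-of-function Raf was combined with loss of scrib. Tumours were taken at day 10 and wild-type discs at day 5 to 6, both from larvae raised at 25 °C, and each RNA came from about 30 to 40 discs. Each genotype had 4 arrays, called biological replicates, each of which compared tumour RNA with RNA of the wild-type discs. Since tumours arose from clones, other cells of the disc can remain, and the sources used here do not state how much of a sample was tumour. Since tumours were also older than the wild-type discs, tumour state and age cannot be told apart in any comparison against wild-type.

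A basement membrane is a sheet of secreted proteins under an epithelium. Collagen IV trimers form its scaffold, and laminin trimers of an alpha, a beta and a gamma chain polymerise at the cell surface. In the fly larva much of the collagen IV on the discs is made by the fat body and by haemocytes and reaches the discs through the haemolymph, while cells of an epithelium can make laminin themselves. Haemocytes also attach to imaginal discs, tumours included, so RNA of a dissected disc can hold RNA of these cells.

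Values are log2 ratios, so that 1 stands for a 2-fold difference, and a positive value is read as higher in the tumour. That direction is likely but not stated, and rests on the labels, which list tumour RNA in channel 1 throughout. If the ratio ran the other way, each rise would be a fall of equal size. RafGOFscrib- replicates 1 and 2 were the same in 95.1% of all features and in 8 of the 9 genes, where the next most alike arrays shared 0.143%, so their mean was counted as 1 replicate (replicate 1) and RafGOFscrib- had n = 3. RasV12baz- replicate 4 stood apart from its group: it correlated with RasV12cdc42- replicate 4 at r = 0.71 across features and with its own genotype at 0.28 to 0.44. Calls that were gained or lost when it alone was left out are stated below. Array medians over all features ran from -0.12 to 0.48, and the medians of the group means were 0.05 in RasV12scrib-, 0.29 in RafGOFscrib-, 0.21 in RasV12baz- and 0.14 in RasV12cdc42-. Within a genotype, replicates 1 and 2, and replicates 3 and 4, resembled each other more (mean r = 0.67 across features) than arrays of different pairs did (0.43). In RasV12cdc42- the pairs coincide with dye orientation, since replicates 1 and 2 were dye-swapped and replicates 3 and 4 were not. Beyond that the labels do not say what these pairs share. A fit that takes each pair of a genotype as a random block is called the random blocks in what follows. Changes are also given with each array centred on its median where that moved a call.

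In bulk RNA, fewer cells of a type and less RNA per cell cannot be told apart. Markers of other cells could hardly be followed, because the table's identifiers mostly have no symbol in the reference table. Of 68 further genes in 7 lists (15 other basement membrane genes, 16 other haemocyte genes, 11 of the fat body, 10 of muscle, 4 of trachea, 3 of glia and 9 of the eye-antennal disc) only the haemocyte-list gene gcm2 and the fat body gene Lsp2 were matched. The labelled tissue could thus not be checked against its own markers. Lsp2, a larval serum protein gene of the fat body, lay between -4.44 and -2.49 in RasV12scrib-, between -3.05 and 0.40 in RafGOFscrib-, between -3.22 and 2.60 in RasV12baz- and between -2.49 and -0.46 in RasV12cdc42-. The transcription factor gene gcm2 had group means from 0.10 ± 0.62 (SD, n = 4) in RasV12baz- to 0.32 ± 0.19 (n = 3) in RafGOFscrib-.

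Against wild-type, the sets of genes that changed differed in content. In RasV12scrib- tumours Col4a1 and Pxn fell and LanB1 rose. In RasV12baz- tumours Col4a1, SPARC and Hml rose, and in RasV12cdc42- tumours LanB1, SPARC and Hml rose. No gene passed the threshold in RafGOFscrib- tumours (limma, Benjamini-Hochberg adjusted p under 0.05 over all features). Among the 4 genotypes themselves, Col4a1, SPARC, Pxn and Hml differed (limma F-test). With the random blocks, 3 of the 9 calls against wild-type held (Pxn in RasV12scrib- at adjusted p = 0.0255, SPARC in RasV12baz- at 0.0230 and in RasV12cdc42- at 0.00320), and 0 of the 4 genes passed the F-test (0.119, 0.300, 0.159 and 0.588 in the order named). The share of all features that passed with the random blocks is not given, here or below. Calls lost with them are therefore not read as particular to these genes.

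**Figure D1:**
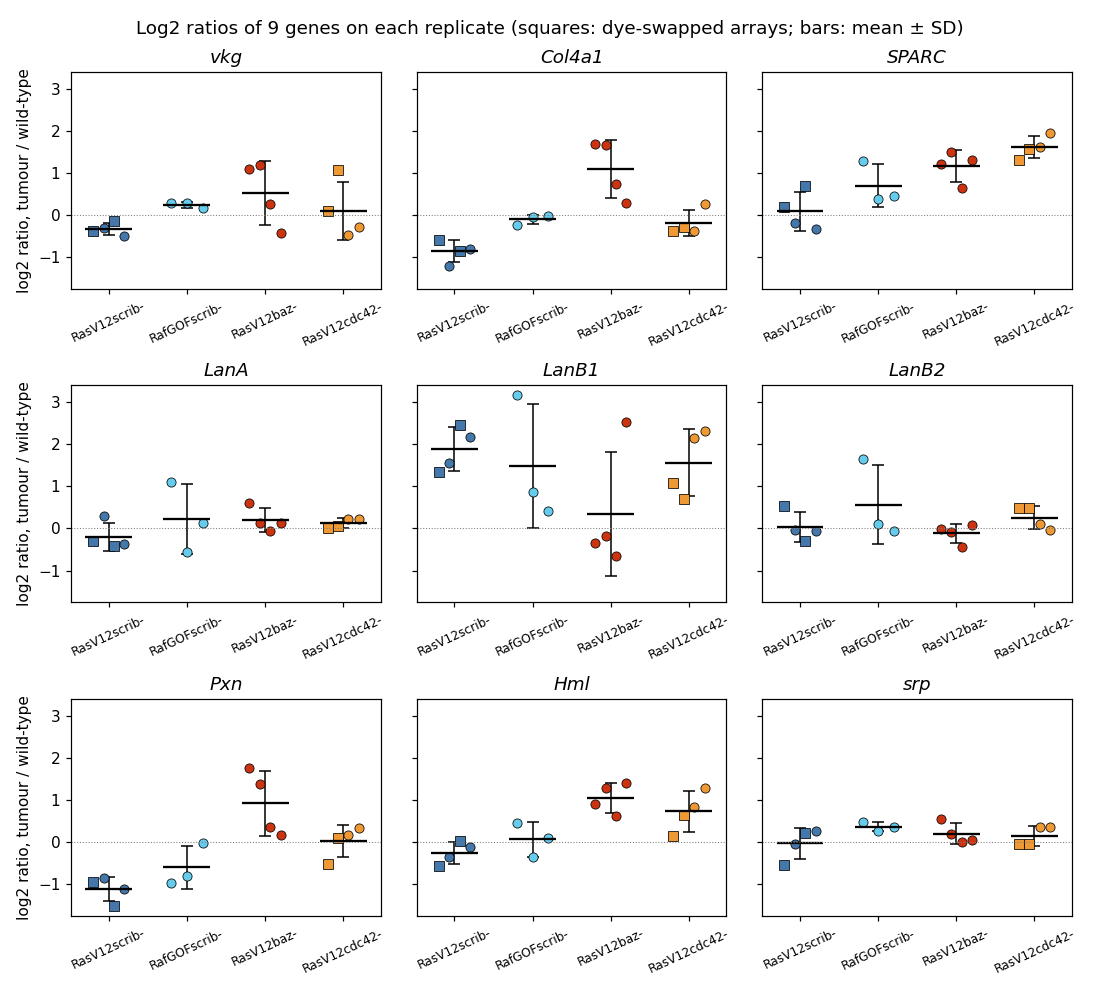
Log2 ratio of tumour over wild-type (y axis) of each of the 9 genes in the 4 genotypes (x axis). Points are replicates, squares are dye-swapped arrays, and bars are the mean ± SD. Col4a1 and Pxn lie below 0 on all RasV12scrib- replicates and above 0 on all RasV12baz- replicates, and SPARC is at or above 1.30 on all RasV12cdc42- replicates.

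The collagen IV chains come first. Col4a1 encodes the alpha 1 chain and vkg the alpha 2 chain, and no gene of the RefSeq table of the Release 6 assembly lies between them. Col4a1 had log2 ratios of -0.59, -1.21, -0.85 and -0.80 on the RasV12scrib- replicates and of 1.70, 1.65, 0.73 and 0.29 on the RasV12baz- replicates. It had -0.24, -0.06 and -0.02 in RafGOFscrib- and -0.37, -0.29, -0.38 and 0.27 in RasV12cdc42-. Every RasV12scrib- value was below every value of the other genotypes, and every RasV12baz- value was above them. RasV12baz- replicates 1 and 2 were the high ones of their group.

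The fitted change of Col4a1 in RasV12scrib- was -0.86 ± 0.21 (SE, n = 4, limma adjusted p = 0.00547), a 1.82-fold fall. In RasV12baz- it was 1.10 ± 0.26 (n = 4, adjusted p = 0.0166), a 2.14-fold rise. The difference between these genotypes was 1.96 ± 0.33 (95% interval 1.26 to 2.66, adjusted p = 0.00333), or 3.88-fold. In size it ranked 75th of all features in that comparison. In RafGOFscrib- and RasV12cdc42- the fitted values were -0.10 ± 0.29 and -0.19 ± 0.21 (adjusted p = 0.859 and 0.673). The rise in RasV12baz- rested on replicates 1 and 2: without replicate 1 it was 0.90 (adjusted p = 0.106), without replicate 2 it was 0.91 (adjusted p = 0.125), and without replicate 4 it was 1.36 (adjusted p = 0.00285). With the random blocks, both calls against wild-type were lost (adjusted p = 0.0583 and 0.0673), while the difference between RasV12baz- and RasV12scrib- was 2.04 (adjusted p = 0.0441).

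The partner chain vkg had smaller values. It measured -0.38, -0.31, -0.15 and -0.49 in RasV12scrib- and 0.28, 0.28 and 0.16 in RafGOFscrib-. In RasV12baz- it measured 1.09, 1.18, 0.26 and -0.42, and in RasV12cdc42- 0.10, 1.08, -0.47 and -0.29. RasV12scrib- values were all below 0, but RasV12baz- and RasV12cdc42- each spanned both signs. No comparison of vkg passed the threshold. Its fitted change in RasV12baz- was 0.80 ± 0.28 (adjusted p = 0.126) and its difference between RasV12baz- and RasV12scrib- was 1.14 ± 0.37 (adjusted p = 0.105). Without RasV12baz- replicate 4, the array that stood apart, these were 1.12 (adjusted p = 0.0175) and 1.45 (adjusted p = 0.0143).

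Both chains are compared on the same array by subtracting the vkg ratio from the Col4a1 ratio, a difference that no rescaling of an array's zero can move. It was 0.57 ± 0.12 in RasV12baz- (SD, n = 4, lowest 0.47), positive on all 4 replicates. It was -0.53 ± 0.32 in RasV12scrib- (n = 4) and -0.35 ± 0.16 in RafGOFscrib- (n = 3), negative on each replicate. In RasV12cdc42- it was -0.47 and -1.36 on the dye-swapped replicates 1 and 2, and 0.09 and 0.56 on replicates 3 and 4. These and later same-array differences carry no dye correction. The fitted dye effect was 0.55 for vkg (limma adjusted p = 0.549) and 0.004 for Col4a1. RasV12baz- and RafGOFscrib- had no swapped array. The dye-corrected fitted values of the chains lay closer together than the raw means in RasV12baz-, and farther apart in RafGOFscrib-. The measured ratios of the 2 chains thus differed, with Col4a1 farther from wild-type than vkg in the mean of RasV12scrib- and of RasV12baz-. This difference was not tested, and spot signals were not used.

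SPARC encodes a secreted glycoprotein that binds collagen and is needed for normal collagen IV deposition. Its log2 ratios were 1.30, 1.57, 1.62 and 1.94 in RasV12cdc42- and 1.21, 1.49, 0.63 and 1.32 in RasV12baz-. They were 1.28, 0.37 and 0.44 in RafGOFscrib- and 0.20, -0.19, 0.69 and -0.34 in RasV12scrib-. The RasV12cdc42- values were all above those of both scrib genotypes, and RasV12scrib- lay around 0.

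SPARC rose in RasV12cdc42- by 1.61 ± 0.20 (n = 4, limma adjusted p = 2.74e-05), or 3.05-fold, and in RasV12baz- by 1.26 ± 0.25 (adjusted p = 0.00439), or 2.39-fold. In RasV12scrib- its fitted value was 0.09 ± 0.20 (adjusted p = 0.820) and in RafGOFscrib- 0.79 ± 0.28 (adjusted p = 0.115). These 2 rises were the calls that held under each of 25 other settings, with adjusted p up to 0.00320 in RasV12cdc42- and up to 0.0374 in RasV12baz-. SPARC was higher in RasV12cdc42- than in RasV12scrib- by 1.52 ± 0.29 (95% interval 0.92 to 2.12, adjusted p = 0.00361), or 2.86-fold, which the random blocks ended (adjusted p = 0.125). Its difference between RasV12baz- and RasV12scrib- was 1.17 ± 0.32 (adjusted p = 0.0570). That difference passed without RasV12scrib- replicate 3 (adjusted p = 0.0273), without RafGOFscrib- replicate 1 (0.0383) or without RasV12baz- replicate 3 (0.0419). It also passed with no dye term (1.07, adjusted p = 0.0304), with Cy3 arrays only (1.43, 0.0435), with quantile normalisation, with array weights, and without RasV12baz- replicate 4 and the near-identical arrays together (1.11, 0.0444). Between RasV12cdc42- and RasV12baz- it differed by 0.35 with a 95% interval of -0.32 to 1.03.

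SPARC and Col4a1 parted in RasV12cdc42-. On the same array the SPARC ratio exceeded the Col4a1 ratio by 1.80 ± 0.16 there (SD, n = 4). In RasV12baz- the same difference was 0.07 ± 0.66, and it was positive on 1 of 4 replicates. In RasV12scrib- it was 0.95 ± 0.45 and in RafGOFscrib- 0.80 ± 0.62 (n = 3), positive on every replicate.

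The laminin genes LanA, LanB1 and LanB2 encode the alpha, beta and gamma chain, which assemble into 1 trimer. LanB1 had log2 ratios of 1.35, 1.56, 2.46 and 2.18 in RasV12scrib- and of 1.08, 0.70, 2.16 and 2.31 in RasV12cdc42-. It had 3.17, 0.88 and 0.42 in RafGOFscrib-. In RasV12baz- it had -0.35, -0.19, -0.65 and 2.53. It was thus above 0 on every replicate of 3 genotypes and below 0 on RasV12baz- replicates 1 to 3, with replicate 4 alone high in that group.

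LanB1 rose in RasV12scrib- by 1.89 ± 0.43 (n = 4, limma adjusted p = 0.00308), or 3.70-fold, and in RasV12cdc42- by 1.56 ± 0.43 (n = 4, adjusted p = 0.0281), or 2.95-fold. The second call was lost without any 1 of RasV12cdc42- replicates 1, 2, 3 and 4 (adjusted p = 0.0950, 0.0666, 0.146 and 0.151), with centred arrays (0.0871) and with the random blocks (0.342). The random blocks also ended the call in RasV12scrib- (0.0716). In RafGOFscrib- the fitted value was 1.16 ± 0.58 (n = 3, adjusted p = 0.297) and in RasV12baz- 0.01 ± 0.53 (adjusted p = 0.996). Without RasV12baz- replicate 4 the RasV12baz- value was -0.73 (adjusted p = 0.330), and the difference from RasV12scrib- moved from -1.88 ± 0.68 (adjusted p = 0.157) to -2.61 (adjusted p = 0.00952).

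LanA and LanB2 did not pass in any comparison. LanA ran from -0.56 to 1.09 and LanB2 from -0.45 to 1.64, with the highest value of both on RafGOFscrib- replicate 1. That replicate also had the highest LanB1 ratio, 3.17. Fitted values against wild-type ran from -0.20 ± 0.21 to 0.13 ± 0.21 for LanA and from 0.03 ± 0.22 to 0.73 ± 0.30 for LanB2, the last in RafGOFscrib- (adjusted p = 0.196). On the same array, LanB1 exceeded LanA on 12 of 15 replicates, by a median of 1.44, and LanB2 on 12 of 15, by a median of 0.81. The exceptions were RasV12baz- replicates 1 to 3 in both cases. LanA minus LanB2 ran from -0.83 to 0.63 and was positive on 8 of 15 replicates.

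**Figure D2:**
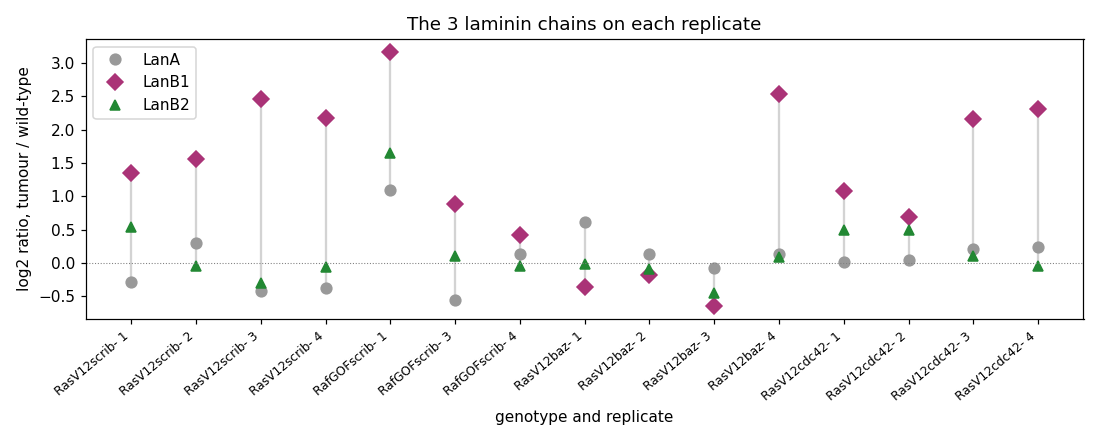
Log2 ratio (y axis) of the laminin chains LanA, LanB1 and LanB2 on each of the 15 replicates (x axis), joined by a grey line per replicate. LanB1 is the top chain on 12 of 15 replicates and lies below both others on RasV12baz- replicates 1 to 3.

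The haemocyte genes come next. Pxn encodes peroxidasin, a secreted peroxidase that cross-links collagen IV and is expressed by haemocytes. Its log2 ratios were -0.95, -0.86, -1.53 and -1.13 in RasV12scrib- and -0.97, -0.82 and -0.02 in RafGOFscrib-. They were 1.76, 1.38, 0.36 and 0.17 in RasV12baz- and -0.53, 0.10, 0.17 and 0.33 in RasV12cdc42-. All replicates of both scrib genotypes were below 0 and all of RasV12baz- were above 0, with replicates 1 and 2 again the high ones.

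Pxn fell in RasV12scrib- to -1.12 ± 0.23 (n = 4, limma adjusted p = 0.00155), a 2.17-fold fall. The call held in 24 of 25 other settings, the random blocks included (adjusted p = 0.0255). The exception was the use of arrays with tumour RNA in Cy3 only. In RafGOFscrib- its fitted value was -0.78 ± 0.32 (n = 3, adjusted p = 0.185), which centred arrays brought past the threshold (-1.02, adjusted p = 0.0445). In RasV12baz- it was 0.74 ± 0.29 (adjusted p = 0.174), or 0.92 without the dye correction, which passed (adjusted p = 0.0171). Pxn was higher in RasV12baz- than in RasV12scrib- by 1.86 ± 0.37 (95% interval 1.08 to 2.63, adjusted p = 0.00981), or 3.62-fold. That call was lost without RasV12scrib- replicate 4 (adjusted p = 0.0561) and with the random blocks (0.114).

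Hml encodes hemolectin, a secreted clotting protein widely used as a marker of larval haemocytes. It had log2 ratios of 0.90, 1.29, 0.62 and 1.40 in RasV12baz- and of 0.14, 0.63, 0.84 and 1.29 in RasV12cdc42-. It had 0.46, -0.37 and 0.09 in RafGOFscrib- and -0.57, -0.37, 0.01 and -0.12 in RasV12scrib-. Every RasV12baz- and RasV12cdc42- replicate was above every RasV12scrib- replicate. Unlike Col4a1 and Pxn, Hml was as high on RasV12baz- replicate 4 as on replicates 1 and 2.

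Hml rose in RasV12baz- by 0.87 ± 0.24 (n = 4, limma adjusted p = 0.0365), or 1.83-fold, and in RasV12cdc42- by 0.73 ± 0.19 (n = 4, adjusted p = 0.0217), or 1.65-fold. The first call was lost without RasV12baz- replicate 1, 2 or 4, RasV12scrib- replicate 2, 3 or 4, RafGOFscrib- replicate 4 or RasV12cdc42- replicate 2 or 3, with values of 0.76 to 0.92 (adjusted p from 0.0501 to 0.172), and with centred arrays (0.72, adjusted p = 0.0769). The second was lost without RasV12cdc42- replicate 2, 3 or 4, with values of 0.57 to 0.75 (adjusted p from 0.0950 to 0.204). The random blocks ended both (adjusted p = 0.190 and 0.305). In RasV12scrib- the fitted value was -0.26 ± 0.19 and in RafGOFscrib- -0.12 ± 0.26 (adjusted p = 0.394 and 0.823).

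Between genotypes, Hml was higher in RasV12baz- than in RasV12scrib- by 1.13 ± 0.30 (95% interval 0.50 to 1.77, adjusted p = 0.0479), or 2.19-fold. This call was at the threshold: it was lost in 12 of 15 refits that each left out 1 replicate (values 0.96 to 1.22, adjusted p from 0.0508 to 0.165). The 3 that kept it left out RasV12scrib- replicate 3, RafGOFscrib- replicate 1 or RasV12baz- replicate 3. It was also lost with the random blocks (1.22, adjusted p = 0.357), with centred arrays (1.04, 0.0593), with the replicate number as a fixed block (0.0652), and without RasV12baz- replicate 4 and the near-identical arrays together (0.0526), a setting chosen after seeing the data. Quantile normalisation (0.0687) and Cy3 arrays alone (0.0586) ended it too. The difference between RasV12cdc42- and RasV12scrib-, 0.98 ± 0.27, just missed it (adjusted p = 0.0503).

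srp encodes a GATA factor needed for the formation of haemocytes and fat body. Its log2 ratios stayed between -0.55 and 0.54 on all 15 replicates. Group means were -0.03 ± 0.37 (SD, n = 4) in RasV12scrib-, 0.36 ± 0.11 (n = 3) in RafGOFscrib-, 0.19 ± 0.25 (n = 4) in RasV12baz- and 0.15 ± 0.24 (n = 4) in RasV12cdc42-. Fitted values against wild-type ran from -0.03 ± 0.16 to 0.19 ± 0.22, and srp passed in no comparison. The 95% intervals reached at most 0.65, and that of RasV12baz- was -0.39 to 0.44. Whether srp follows the amount of haemocyte RNA in these samples was not tested.

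**Figure D3:**
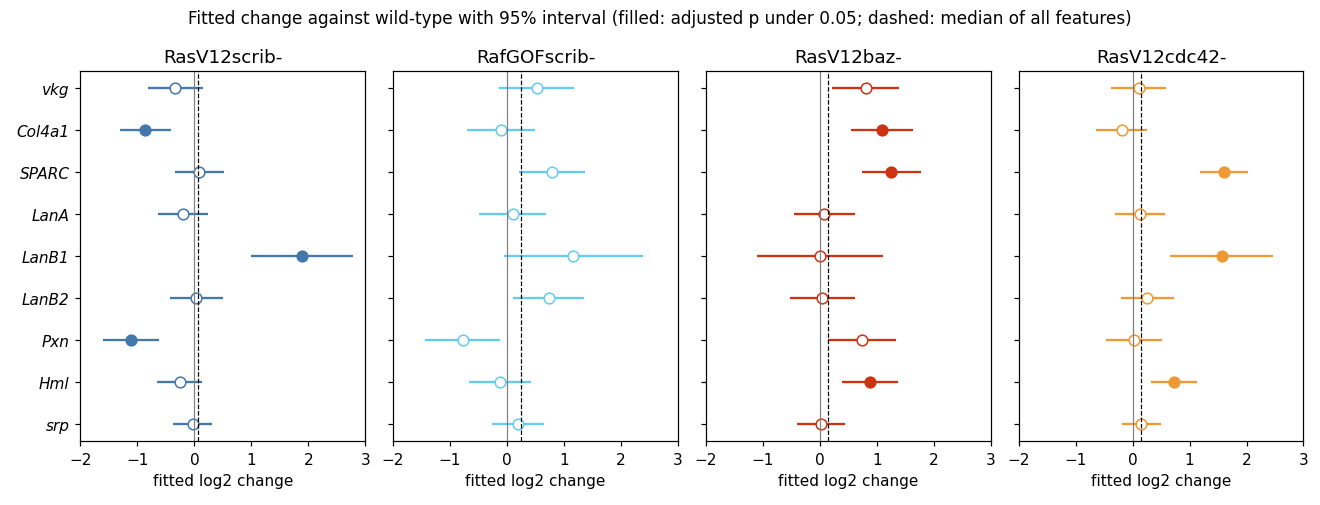
Fitted log2 change against wild-type (x axis) of the 9 genes (y axis) in each genotype, with its 95% interval. Filled points passed an adjusted p of 0.05, and the dashed line is the median of all features, from 0.05 to 0.24. Of 36 points 9 are filled, and none of them is in RafGOFscrib-.

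Read by comparison, 3 of the 9 genes passed in RasV12scrib- against wild-type, 1 higher and 2 lower, where 22.1% of all features passed (10.4% higher and 11.7% lower). In RasV12baz- 3 passed, all higher, against 4.75% of all features (3.65% higher). In RasV12cdc42- 3 passed, all higher, against 8.14% of all features (5.72% higher and 2.42% lower). With tumour RNA in Cy3 only, which left 2 RasV12scrib- arrays, 0 of the 3 calls in RasV12scrib- held (adjusted p = 0.0532 for Col4a1, 0.0721 for LanB1 and 0.0800 for Pxn), and that of LanB1 in RasV12cdc42- was lost too (0.0553). The call of Col4a1 in RasV12scrib- also ended with quantile normalisation (0.0513) and with array weights (0.0620). In RafGOFscrib- 0 passed by limma, where 4.74% of all features did, and 3 genes (LanB2, SPARC and Pxn) had an unadjusted p under 0.05. The share of all features with an unadjusted p under 0.05 was not counted, in this or any other comparison. Shares given beside such genes, here and below, are for adjusted p. The median fitted value of the 9 genes was -0.20 in RasV12scrib-, 0.19 in RafGOFscrib-, 0.74 in RasV12baz- and 0.15 in RasV12cdc42-, beside 0.05, 0.24, 0.15 and 0.14 over all features. In RasV12baz- all 9 fitted values were above 0, the lowest that of LanB1 at 0.01. That of LanB2 was above 0 only with the dye correction: its mean in RasV12baz- was -0.12, with 1 of 4 replicates above 0. With centred arrays LanA (-0.07), LanB1 (-0.14), LanB2 (-0.11) and srp (-0.13) were below 0 there. The share of all features above 0 was not counted. All replicates lay on the same side of 0 for 4 of 9 genes in RasV12scrib- (34.3% of all features), 6 in RafGOFscrib- (55.6%), 5 in RasV12baz- (29.0%) and 4 in RasV12cdc42- (31.8%). These comparisons all use reference RNA of wild-type discs, which may have been the same RNA on several arrays. The spread of the wild-type itself is left out of them.

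The genotypes were then compared with each other, where wild-type RNA enters both sides. In the F-test 4 of 9 genes passed, against 3.97% of all features: Col4a1 (adjusted p = 0.00790), Pxn (0.00932), SPARC (0.0141) and Hml (0.0281). Leaving out RasV12scrib- replicate 4 ended the call of SPARC (0.0602), and that of Hml was lost in 9 of 15 refits without 1 replicate (0.0531 to 0.0731). Adjusted p was 0.294 for vkg, 0.368 for LanB1, 0.618 for LanB2, 0.966 for LanA and 0.988 for srp. Without RasV12baz- replicate 4 LanB1 passed (0.0251).

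Loss of baz and loss of scrib were compared under the same activated Ras. Col4a1, Pxn and Hml were higher in RasV12baz- and no gene was lower, so that 3 of 9 passed against 3.02% of all features (2.47% higher and 0.554% lower). With the random blocks only Col4a1 of these 3 passed (adjusted p = 0.0441, against 0.114 for Pxn and 0.357 for Hml). The replicates of these 3 genes did not overlap between the genotypes, as was the case for 10.2% of all features. Fitted on the arrays of these genotypes alone, all 3 calls were lost (adjusted p = 0.0552 for Col4a1, 0.0873 for Pxn and 0.169 for Hml). The median difference of the 9 genes was 1.13 beside 0.13 over all features. Lsp2 of the fat body was also higher in RasV12baz-, by 3.99 ± 1.01 (adjusted p = 0.0373), with overlapping replicates. Against wild-type its fitted value was 0.07 ± 0.78 in RasV12baz- (limma adjusted p = 0.977) and -3.92 ± 0.64 in RasV12scrib- (adjusted p = 0.000143). On RasV12baz- replicates 1 to 4 Lsp2 was at 2.60, 0.36, 0.03 and -3.22. On the same arrays Col4a1 was at 1.70, 1.65, 0.73 and 0.29 and Pxn at 1.76, 1.38, 0.36 and 0.17. Hml was at 0.90, 1.29, 0.62 and 1.40. The part of fat body RNA in the differences of Col4a1, Pxn and Hml was not tested.

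Loss of cdc42 and loss of scrib differed in 1 of 9 genes, SPARC, higher in RasV12cdc42-, against 3.51% of all features (2.64% higher). Replicates did not overlap for Col4a1, SPARC, Pxn and Hml, 4 of 9 genes, as for 8.80% of all features, and all 4 were higher in RasV12cdc42-. Pxn differed by 1.14 ± 0.33 (adjusted p = 0.0673) and Col4a1 by 0.67 ± 0.30 (adjusted p = 0.323). Pxn passed with centred arrays (1.07, adjusted p = 0.0431), on the arrays of these genotypes alone (0.0258) and without RasV12baz- replicate 1 (0.0392) or 4 (0.0428), both arrays of a genotype outside the comparison. Without RasV12baz- replicate 4 and the near-identical arrays together, both Pxn (0.0425) and Hml (0.0355) passed, and with the random blocks neither did (0.518 and 0.611). Hml also passed with the near-identical arrays kept apart, and without RasV12scrib- replicate 3 (0.0221), RafGOFscrib- replicate 1 (0.0445) or 3 (just under the threshold), RasV12baz- replicate 3 (0.0472) or 4 (0.0432) or RasV12cdc42- replicate 1 (0.0483).

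The Raf and Ras oncogenes were compared in tumours that share the scrib loss. By limma 0 of 9 genes passed, against 1.18% of all features, and 2 had an unadjusted p under 0.05. These were vkg, higher in RafGOFscrib- by 0.85 (95% interval 0.04 to 1.66, adjusted p = 0.333), and Col4a1, higher by 0.76 (lower bound 0.01, adjusted p = 0.348). For both the replicates of the genotypes did not overlap, as for 15.3% of all features. Pxn differed by 0.33 with an interval of -0.49 to 1.16 and Hml by 0.14 with an interval of -0.53 to 0.82. The interval of Pxn thus includes a 2-fold difference and that of Hml does not.

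RasV12baz- and RafGOFscrib- differ in both the oncogene and the polarity gene. By limma 0 of 9 genes passed, against 0.464% of all features, and 3 had an unadjusted p under 0.05, all higher in RasV12baz-: Pxn by 1.52 ± 0.36 (adjusted p = 0.0650), Col4a1 by 1.20 ± 0.32 (adjusted p = 0.115) and Hml by 0.99 ± 0.29 (adjusted p = 0.174). Their replicates did not overlap, as for 8.15% of all features. With centred arrays Pxn (1.61, adjusted p = 0.0194) and Col4a1 (1.29, adjusted p = 0.0447) passed. Pxn also passed without RafGOFscrib- replicate 4 (0.0419) or RasV12baz- replicate 3 (0.0319), and both passed without RasV12baz- replicate 4 (0.0265 and 0.0299).

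Between RasV12cdc42- and RafGOFscrib- 0 of 9 genes passed by limma, against 0.598% of all features (0.313% higher in RasV12cdc42-), and SPARC (0.82 ± 0.34) and Hml (0.84 ± 0.32) had an unadjusted p under 0.05 (adjusted p = 0.603 and 0.507). The replicates of SPARC did not overlap there, as for 12.8% of all features. Between RasV12cdc42- and RasV12baz- 0 of 9 passed by limma as well, against 0.0357% of all features (0.0179% higher and 0.0179% lower), and Col4a1 and LanB1 had an unadjusted p under 0.05. Col4a1 was lower in RasV12cdc42- (-1.29 ± 0.33, 95% interval -1.99 to -0.59, adjusted p = 0.260), with no overlap of replicates, as for 4.35% of all features. LanB1 was at 1.56 ± 0.68 (adjusted p = 0.833). Without RasV12baz- replicate 4 the Col4a1 difference was -1.55 (adjusted p = 0.0435).

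Across the 15 replicates, which fall into 4 genotypes and may share a reference RNA, some of the genes varied together. These correlations are descriptions only. Col4a1 and Pxn had Pearson r = 0.90 (Spearman rho 0.84), and within genotypes, after each group mean was taken off, r = 0.75. With group means left in, but without the 2 replicates farthest from the median of Col4a1, r was 0.75. Pxn ranked 8th among all features by likeness to Col4a1, whose r with all features had a median of 0.23. The other collagen chain, vkg, ranked 672nd with r = 0.68 (rho 0.59), and its r without the 2 replicates farthest from the median of vkg was 0.27, so it rests on those replicates. The feature most like Col4a1 outside the 9 genes was FBgn0037391 (r = 0.92).

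SPARC and Hml had r = 0.82 (rho 0.84), r = 0.70 within genotypes and 0.81 without the 2 farthest replicates. Hml ranked 44th by likeness to SPARC. Pxn and Hml had r = 0.75, but r = 0.11 within genotypes, with the deviations of the 4 groups pooled. Col4a1 and Hml likewise had r = 0.68 and 0.10 within genotypes. For Pxn and Hml the pooled value covers unlike genotypes. On RasV12cdc42- replicates 1 to 4 both rose in the same order (Pxn -0.53, 0.10, 0.17 and 0.33, Hml 0.14, 0.63, 0.84 and 1.29). In RasV12scrib- the lowest Pxn value, -1.53, fell on the replicate with the highest Hml value, 0.01. The feature most like Hml outside the 9 genes was FBgn0029147 (r = 0.92). LanB1 ran against Col4a1 (r = -0.62, rho -0.48) and against vkg (-0.67, rho -0.61), with -0.40 and -0.58 within genotypes. Its r with LanA was 0.13 and with LanB2 0.43. The r of srp with the other 8 genes lay between -0.01 and 0.44.

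**Figure D4:**
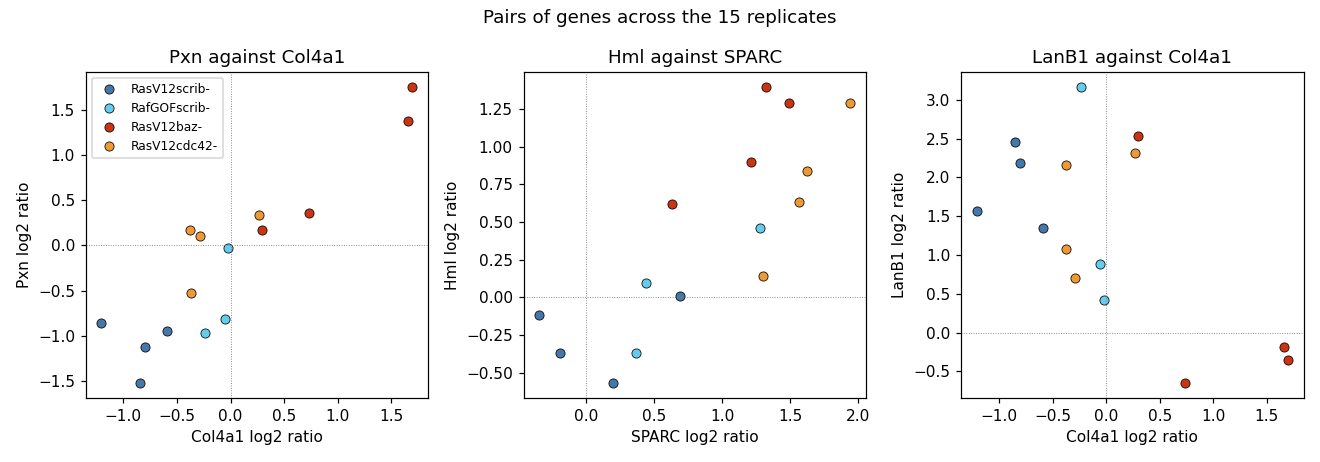
Log2 ratios of pairs of genes on the 15 replicates, coloured by genotype: Pxn against Col4a1 (r = 0.90), Hml against SPARC (r = 0.82) and LanB1 against Col4a1 (r = -0.62). The RasV12scrib- replicates (dark blue) lie at the low end of Col4a1 and Pxn, and RasV12baz- replicates 1 and 2 (red) at the high end.

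**Figure D5:**
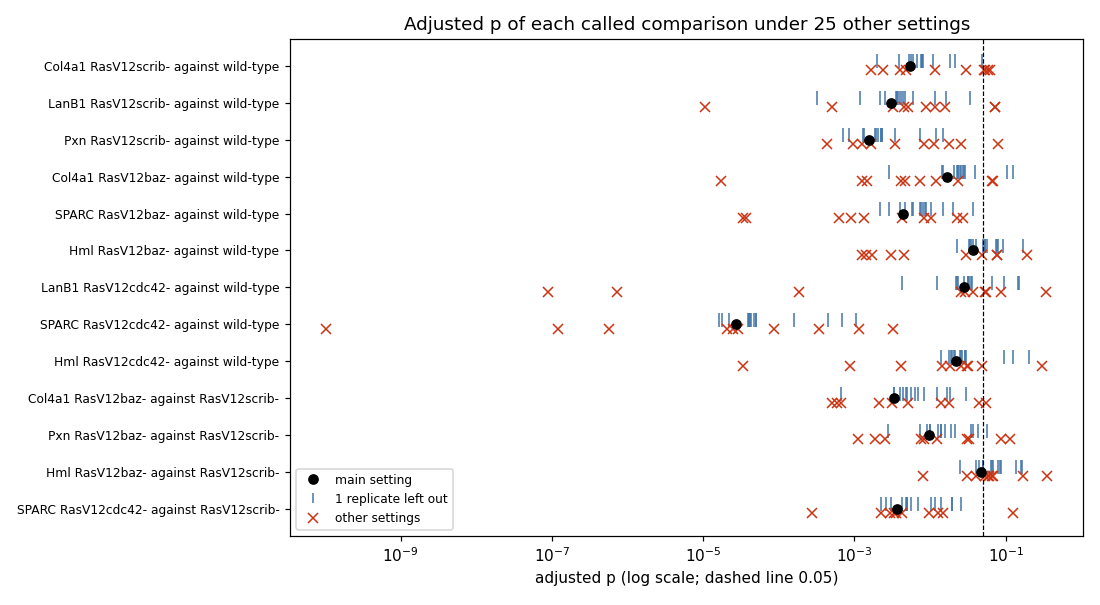
Adjusted p (x axis, log scale) of each of the 13 called comparisons between 2 groups (y axis) in the main setting (black), with 1 of 15 replicates left out (blue) and in 10 other settings (red). The dashed line marks 0.05, and both SPARC rises against wild-type stay to its left throughout.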

How the data were processed

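The authors deposited 1 table of log2 ratios, 1 column per 2-colour custom array. Per the labels' protocols, random hexamers primed the amplification, Cy3 marked the tumour and Cy5 the reference, and dyes were exchanged on RasV12scrib- replicates 1 and 3 and RasV12cdc42- replicates 1 and 2. The sources used here do not state scanning, background correction or normalisation. The base was inferred: of 409 values that recurred within an array (3 times or more), 36.7% matched, to 1e-05, log2 of whole-number ratios with terms to 9, and 0% matched natural or decimal logarithms. Opposite dye orientations correlated above 0 on every pair, so no sign was turned. Spot signals were not used here, and the number of arrays limits the precision.

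limma 3.58.1 in R 4.3.3 was fitted to all 11196 features and 15 replicates, with genotype means plus dye as a covariate, followed by empirical Bayes moderation. Genotype means were tested against 0, and contrasts and an F-test compared genotypes. Fitted values carry the SE of the model, and two-sided p-values were adjusted by Benjamini-Hochberg over all features. RafGOFscrib- and RasV12baz- had no swapped array, so their fitted values carry a dye correction from the other genotypes. No feature passed for dye by limma (lowest adjusted p = 0.144, 1156 with unadjusted p under 0.05). On simulated data with independent errors, log2 changes of 1 and 2 were recovered in 69% and 98% of features in RasV12scrib- against wild-type, and 25% and 87% in RasV12baz- against RasV12scrib-. All 9 genes are described, with no filter on low values. The members, lists and tests were chosen with earlier results of these data known. The RefSeq table (Release 6) gave 1 symbol to 71 identifiers. Sequences were not used here. Figures used Python 3.11.15 and matplotlib 3.10.9. Alternatives were the dye term, centring, quantile normalisation, the near-identical arrays kept apart, Cy3 arrays only, random and fixed replicate blocks, array weights (gene by gene, as the default did not converge), the compared genotypes alone, and each replicate left out.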

Additional observations from a re-analysis of the deposited data

Results flagged for a closer look

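LanB1 on RasV12baz- replicate 4 stood far from its group, at 2.53 against -0.19 for the next replicate (a gap of 0.854 of the group's range). Col4a1 on RasV12cdc42- replicate 4 did so at 0.27 against -0.29 (0.862 of the range). Of 27 groups of 4 replicates these 2 passed, and chance flags about 1 in 20.

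For 4 genes the test of the difference between 2 genotypes passed. Col4a1 (1.96, limma adjusted p = 0.00333), Pxn (1.86, adjusted p = 0.00981) and Hml (1.13, adjusted p = 0.0479) were higher in RasV12baz- than in RasV12scrib- on the log2 scale, and SPARC (1.52, adjusted p = 0.00361) was higher in RasV12cdc42- than in RasV12scrib-. With the random blocks only that of Col4a1 passed (adjusted p = 0.0441), and Pxn (0.114), Hml (0.357) and SPARC (0.125) did not.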

How the results depend on the processing

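No result that passed changed sign in any of 25 other settings (24 for the F-test). Of 99 results on single genes, 17 passed as reported, 2 of them (the SPARC rises) in every setting, and 58 passed in none. Leaving out 1 replicate moved the number of the 9 genes that passed from 3 to between 1 and 3 in RasV12baz- and in RasV12cdc42- against wild-type, from 3 to between 1 and 4 in RasV12baz- against RasV12scrib-, from 1 to between 1 and 3 in RasV12cdc42- against RasV12scrib-, from 0 to between 0 and 2 in RasV12baz- against RafGOFscrib-, from 0 to between 0 and 1 in RasV12cdc42- against RasV12baz- and from 4 to between 2 and 5 in the F-test; the other counts stayed at 3 (RasV12scrib- against wild-type) and 0.

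Random blocks of replicates 1-2 and 3-4 within a genotype (correlation 0.566) left 1 gene each in RasV12scrib- (Pxn), RasV12baz- (SPARC) and RasV12cdc42- (SPARC) against wild-type and in RasV12baz- against RasV12scrib- (Col4a1), 0 in RasV12cdc42- against RasV12scrib- and 0 in the F-test. Arrays with tumour RNA in Cy3 only left 0 in RasV12scrib- against wild-type and 2 in the F-test. The compared genotypes alone gave 0 in RasV12baz- and 2 in RasV12cdc42-, each against RasV12scrib-. Centred arrays gave 1 in RafGOFscrib- against wild-type, 2 in RasV12cdc42- against RasV12scrib- and 2 in RasV12baz- against RafGOFscrib-. Quantile normalisation gave 2 in RafGOFscrib- and 5 in RasV12baz- against wild-type, 3 in RasV12baz- and 1 in RasV12cdc42- against RafGOFscrib-, and 1 in RasV12cdc42- against RasV12baz-. With the near-identical RafGOFscrib- arrays kept apart, 3 passed in RafGOFscrib- against wild-type, 2 in RasV12cdc42- against RasV12scrib- and 2 in RasV12baz- against RafGOFscrib-. Array weights gave 5 in RasV12baz- against wild-type, 6 in RasV12baz- against RasV12scrib- (5 higher and 1 lower), 4 in RasV12baz- and 3 in RasV12cdc42- against RafGOFscrib-, and 4 in RasV12cdc42- against RasV12baz-. Without RasV12baz- replicate 4 and the near-identical arrays together, a setting chosen after seeing the data, 5 and 3 passed in RasV12baz- and RasV12cdc42- against RasV12scrib-, and 2 in RasV12cdc42- against RasV12baz-. For all these settings, the replicate block and the refits without a replicate included, the share of all features that passed is not given. Higher or lower counts are therefore not read as particular to these genes. Beyond the smaller number of arrays in some settings, the cause of the changed counts was not tested.

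The replicate numbers were not taken as pairing samples. The deviations of same-numbered samples of different genotypes correlated at r of -0.35 to 0.36 (median 0.13) in 21 pairs, below 0 in some. Of 15 replicates 7 were closest to their own number, a count that was not set against chance. Whether same-numbered samples share a batch was not tested. The labels do not say whether a number marks a shared day or batch. With the replicate block, 2 genes passed in RasV12baz- against wild-type, 2 in RasV12cdc42- against wild-type, 2 in RasV12baz- against RasV12scrib- and 3 in the F-test, with Col4a1 in RasV12baz- at 1.03 (adjusted p = 0.0669), LanB1 in RasV12cdc42- at 1.56 (0.0541), Hml between RasV12baz- and RasV12scrib- at 1.22 (0.0652) and Hml in the F-test at 0.0536. The labels call the replicates biological, and spot signal over background could not be weighed here.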
